A study of Mus musculus with 2 samples.

Results

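The genes described here encode the subunits of the transcription factor NF-kB and the proteins that restrain it. They are 10 of the 32285 genes measured, taken by symbol: the subunit genes Nfkb1, Nfkb2, Rel, Rela and Relb, and the inhibitor or atypical inhibitor genes Nfkbia, Nfkbiz, Nfkbid, Tnfaip3 and Bcl3. All 10 were listed in each of the 12 cluster tables.

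NF-kB dimers are held in the cytoplasm by IkB proteins until a receptor signal leads to destruction of the inhibitor and the dimer enters the nucleus. Several inhibitor genes are themselves NF-kB targets, so the pathway builds its own brake. In microglia, the resident macrophages of the brain, the pathway drives cytokine and chemokine genes, and glucocorticoid hormones oppose it, in part by raising Nfkbia.

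EYFP+ cells of the adult mouse DG (dentate gyrus) were profiled by droplet single-cell RNA sequencing, with 1 WT and 1 iKD library, each from 5 pooled littermates. The WT mice were NestinCreERT2+/-; Vegfa wt/wt; Rosa-LoxSTOPLox-EYFP+/+, and the iKD mice differed only in carrying Vegfa lox/lox. Both groups were 7 to 10 wk old at the start, both received tamoxifen (TAM) for 5 d, and both were sorted 21 d after TAM, so Cre activity and EYFP were shared by control and iKD. Recombination depends on Nestin-driven Cre and is expected in Nestin-expressing cells and their progeny alone.

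The levels below are means over cells of counts per 10,000 UMIs (unique molecular identifiers, 1 per captured RNA molecule). The WT library held 5543 cells and 44142118 UMIs, the iKD library 5261 cells and 37451839 UMIs, with median depths of 8051 and 7080 UMIs per cell. The results concern 8 clusters, which hold 5283 WT and 5009 iKD cells and were deposited under the names qNSC1, qNSC2, aNSC, NSPCs, IPC1, IPC2, eNB and NB. The content of these clusters went against their names. The 10 microglia markers, Cx3cr1, P2ry12 and Tmem119 among them, were each detected in at least 99.1% of the cells, and the 9 neural stem cell markers in at most 1.97% (median 0.360%). The cluster names are therefore used as labels only. Vegfa, the targeted gene, had 101 UMIs in 79 WT cells and 52 UMIs in 47 iKD cells, too few to check the genotype, and whether the counted reads lie in the floxed part was not tested. The libraries shared 9 cell barcodes.

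Sex differed between the libraries and among the clusters. Cells with Xist but no Y-linked UMI (called female here) made up 57.6% of WT and 70.9% of iKD cells of the 8 clusters. IPC2 was 91.2% male in WT and 77.7% male in iKD, whereas eNB was 93.3% and 87.4% female. In aNSC, 70.6% of WT cells but 5.56% of iKD cells were male. The methods speak of roughly balanced sexes across the study, but how many mice of each sex went into either pool is not given in the sources used here, so the cells of a sex in a library may come from few animals. With 1 library per genotype there was no replicate check and no test between genotypes. Intervals are at 95% and cover counting error only, and PCR and animal-to-animal variation lie outside them.

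Promoter sequence is shown for Nfkbia, Rel and Tnfaip3, genes the results turn on, because NF-kB binds its own inhibitor genes and the binding letters can be seen in them. They are the 130 bases upstream of the RefSeq transcription start on GRCm38.p6, read 5′ to 3′ on the gene's strand, with every match to the kB consensus in capitals. The RefSeq table held windows for 7 of the 10 genes, none for Nfkb1, Nfkbiz or Relb. Nfkbia is a protein-coding gene on the minus strand (chr12:55489410-55492647 in GENCODE M21, GRCm38), and its window is chr12:55492648-55492777. Rel lies on the minus strand at chr11:23736847-23770970, with its window at chr11:23770970-23771099. Tnfaip3 lies on the minus strand at chr10:19000910-19015657. The more upstream of its 2 RefSeq windows is shown (chr10:19015411-19015540), which lies inside the longer GENCODE model.

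Nfkbia: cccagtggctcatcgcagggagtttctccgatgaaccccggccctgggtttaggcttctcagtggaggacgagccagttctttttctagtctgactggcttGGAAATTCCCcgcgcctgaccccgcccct
Rel: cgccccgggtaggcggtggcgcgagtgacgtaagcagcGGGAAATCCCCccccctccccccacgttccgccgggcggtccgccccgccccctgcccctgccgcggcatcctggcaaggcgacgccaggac
Tnfaip3: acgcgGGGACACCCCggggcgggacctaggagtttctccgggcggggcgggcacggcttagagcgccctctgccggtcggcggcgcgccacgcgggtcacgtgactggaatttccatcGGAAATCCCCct

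The match in Nfkbia began 29 bases before the start. Rel held 2 overlapping matches, 92 and 91 bases before it, and Tnfaip3 held 2, at 125 and 12 bases. Over the 250 upstream bases searched on both strands, 5 of the 7 genes with a window held a match (Nfkb2, Nfkbia, Nfkbid, Rel and Tnfaip3), and Rela and Bcl3 held none. Among all 27025 genes of the table, 8.23% held a match, and 7.25% of the 32851 windows did. A match is a description of letters and does not show binding in these cells.

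Of the subunit genes, Nfkb1 encodes the precursor of p50, the usual partner of the activating subunits. It was level across the clusters, with means of both libraries from 2.34 in NSPCs to 2.80 in eNB, a 1.20-fold range. Its pooled level was 2.68 in WT and 2.59 in iKD, and it had a UMI in 83.6% of WT and 79.3% of iKD cells. Rela encodes p65, the main activating subunit of the canonical pathway. It was as level, from 0.571 in aNSC to 0.671 in NSPCs, a 1.18-fold range. For Rela, 7 of the 7 neighbouring pairs of clusters in this order overlapped in their library values, so no order could be read from them.

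Rel encodes c-Rel, a subunit that is abundant in immune cells. Its order was steeper, from 3.78 in qNSC2 in both libraries down to 1.59 in NB in both libraries. Between these lay IPC1 (3.64 in WT and 3.56 in iKD), eNB (3.44 and 3.31), IPC2 (3.12 and 3.12), aNSC (3.19 and 2.99), NSPCs (2.75 and 2.77) and qNSC1 (2.29 and 2.65). Of the neighbouring pairs only IPC2 and aNSC overlapped. In 3 clusters, qNSC2, IPC2 and NB, the libraries gave the same value to 3 digits.

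Relb and Nfkb2 encode the pair of subunits of the non-canonical pathway. Both were highest in qNSC1. Relb was at 0.787 in WT and 0.590 in iKD there, against 0.253 and 0.202 in NB, its lowest cluster. Nfkb2 was at 0.275 and 0.251 in qNSC1, which holds 134 WT and 158 iKD cells, and between 0.0895 and 0.182 in every other cluster and library. Across the 16 combinations of cluster and library, the levels of Relb and Nfkb2 had r = 0.89, the closest relation among pairs of subunit genes; Nfkb1 and Rela had r = -0.12. These 16 points share libraries, depth and the clustering itself, and r is given as a description.

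**Figure D1:**
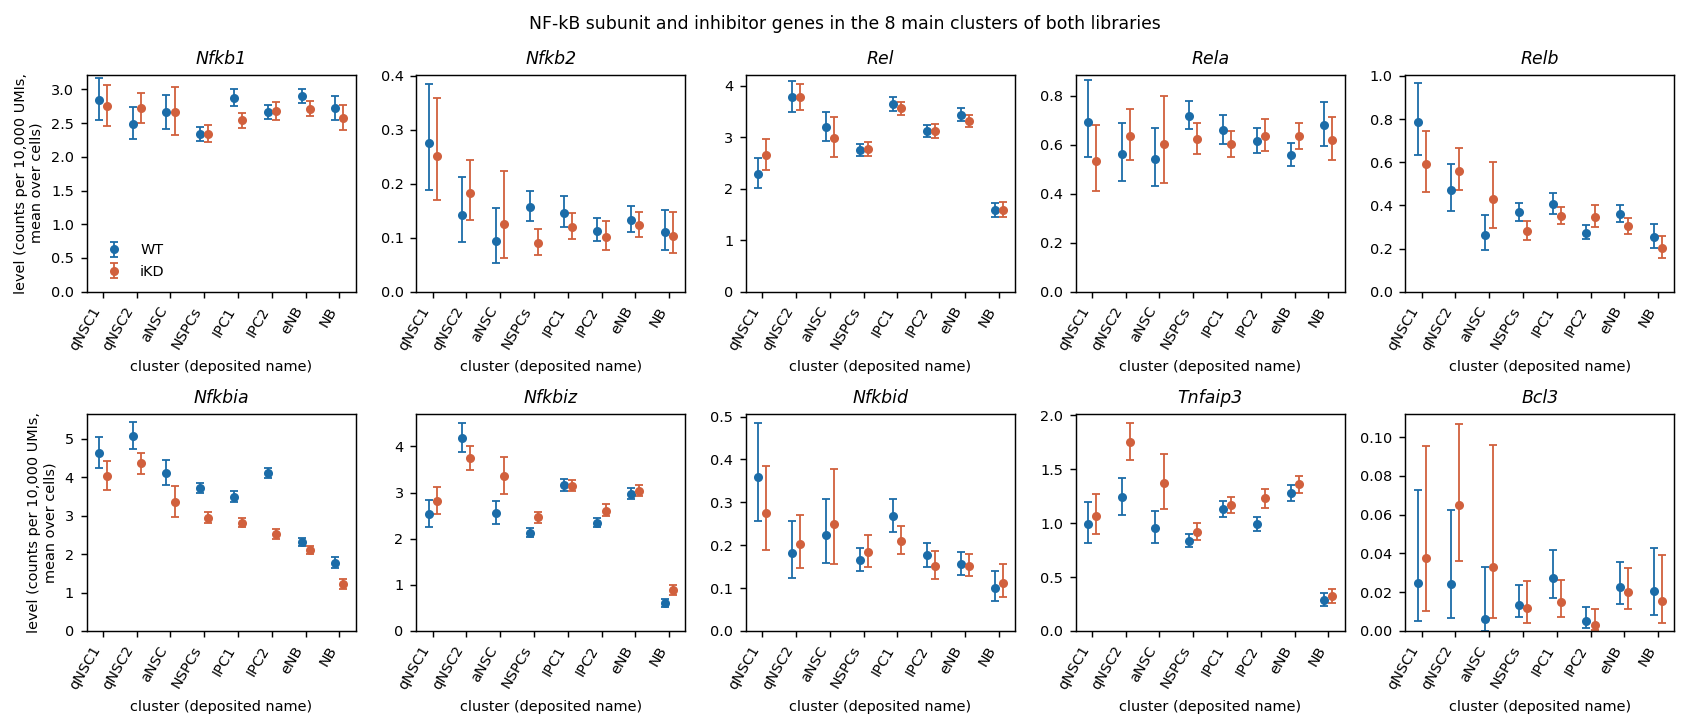
Level of the 10 genes (mean over cells of counts per 10,000 UMIs, linear axes from 0) in the 8 main clusters of the WT library (blue) and the iKD library (orange); bars are 95% Poisson intervals of the summed UMIs, scaled to the level, and cover counting error only. Rel, Nfkbia, Nfkbiz and Tnfaip3 drop in NB in both libraries, Nfkb1 and Rela do not, and Nfkbia is lower in iKD than in WT in every cluster.

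The inhibitor genes spread more widely. Nfkbia encodes IkBa, the classical cytoplasmic inhibitor whose destruction frees the dimer. Its level was highest in qNSC2 (5.08 in WT, 4.36 in iKD), followed by qNSC1 (4.64 and 4.04), aNSC (4.12 and 3.35), NSPCs (3.73 and 2.94), IPC2 (4.12 and 2.53) and IPC1 (3.50 and 2.82). It was lower in eNB (2.31 and 2.11) and lowest in NB (1.78 and 1.22). The upper 6 clusters overlapped from neighbour to neighbour, and eNB and NB each lay below all values of the clusters above them.

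Nfkbiz encodes IkBz, a nuclear atypical IkB that helps activate a subset of cytokine genes. It was at 4.19 in WT and 3.74 in iKD in qNSC2, and at 0.605 and 0.886 in NB, a 5.32-fold range of the library means. The other 6 clusters lay between 2.13 and 3.35. A UMI of Nfkbiz was found in 79.0% of WT qNSC2 cells and in 19.9% of WT NB cells. After each cell was thinned to 4500 UMIs, the shares were 67.4% and 15.8%.

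Tnfaip3 encodes A20, the ubiquitin-editing enzyme that shuts off signalling upstream of NF-kB. By the mean of the libraries it was highest in qNSC2 (1.24 in WT and 1.75 in iKD), although in WT eNB was above qNSC2 (1.28, and 1.36 in iKD). It was lowest in NB, at 0.291 and 0.323, a 4.89-fold range of the library means. NSPCs (0.834 and 0.917) lay above NB and below the rest. Across the 16 combinations of cluster and library, Tnfaip3 and Nfkbiz had r = 0.97, and Rel had r = 0.92 with Nfkbiz and 0.91 with Tnfaip3. The NB points carry much of these values, as the plot of levels by cluster shows.

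Nfkbid encodes IkBNS, another nuclear IkB. It was highest in qNSC1 (0.358 and 0.274) and was detected in 18.7% of WT and 17.1% of iKD cells there. In NB, its lowest cluster, the shares were 7.20% and 6.16%. Bcl3, an atypical IkB that binds p50 and p52 homodimers, had 73 UMIs in WT and 61 in iKD over the 8 clusters. Its level, 0.0169 and 0.0178, was under the minimum of 0.1 set for counts of genes, so 9 of the 10 genes enter the counts that follow.

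In NB, 6 of the 9 genes had their lowest level of the 8 clusters in both libraries: Rel, Relb, Nfkbia, Nfkbiz, Nfkbid and Tnfaip3. Among all 8835 genes at the minimum level, 5.64% did. In qNSC2, 3 of the 9 genes had their highest level in both libraries, Rel, Nfkbia and Nfkbiz, against 4.09% of all genes. Because the clusters were formed from the expression of these same cells, the counts describe the clusters and test nothing.

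The drop in NB differed in size among the 6 genes. Against the mean level of the other 7 clusters pooled, the log2 ratio of NB was -2.12 in WT and -1.71 in iKD for Nfkbiz, and -1.82 and -1.88 for Tnfaip3. Rel went from 3.20 to 1.59 in WT and from 3.23 to 1.59 in iKD (-1.02 in iKD), and Nfkbia from 3.57 to 1.78 and from 2.78 to 1.22 (-1.18 in iKD). The ratio was -0.87 and -0.65 for Nfkbid, and -0.51 and -0.76 for Relb. Nfkb1 was at 0.02 and -0.00, and Rela at 0.10 and 0.00. Thus the genes for p50 and p65 did not share the drop of the genes for c-Rel, IkBa, IkBz and A20.

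A list of 16 dissociation response genes, immediate early and heat shock genes that rise while tissue is taken apart, moved with this drop. Its summed level was 44.3 in WT NB and 58.4 in iKD NB, and between 132 and 184 in the other 7 clusters of both libraries. The summed level of the 28 NF-kB target genes taken up below was lower there too, at 8.86 and 10.8 against 24.1 or more. Over the 8 clusters Junb alone made up 15.9 of 27.0 in WT and 15.8 of 27.0 in iKD, so this sum largely follows Junb. Lower in NB as well were the sums of 16 other IkB and brake genes (8.84 and 9.32 against 15.5 or more) and of 10 glucocorticoid response genes (15.0 and 12.3 against 18.5 or more). Zfp36 made up 10.5 of the brake sum of 16.7 in WT over the 8 clusters, and 10.3 of 16.6 in iKD. In NB, Zfp36 was at 2.60 in female and 1.94 in male WT cells, and at 3.06 and 3.36 in iKD. A low brake sum in NB is therefore not a drop of each brake gene. Among the glucocorticoid response genes, Fkbp5 did not share the drop. In NB it was at 3.99 in female and 10.1 in male WT cells, against 3.64 and 8.97 over the 8 clusters. In iKD it was at 4.26 and 3.05, against 3.85 and 2.65. Tsc22d3 was lower in NB, at 1.28 and 2.87 in WT against 2.07 and 4.24, and at 1.27 and 1.60 in iKD against 2.32 and 2.62. Of the genes in these lists, Junb, Zfp36 and Dusp1 are also in the dissociation list. IKK kinase and adaptor genes (14.8 and 14.9) and receptor genes (4.93 and 5.06) were not lowest in NB. NB also had the lowest depth, with medians of 7117.5 and 6173 UMIs per cell. After thinning to 4500 UMIs, 5 of the 9 genes were still lowest in NB in both libraries, Relb being the exception. In female cells alone 4 were lowest in NB, Rel, Nfkbia, Nfkbiz and Tnfaip3, and in male cells alone 5, these 4 and Relb. The part of the dissociation response in the drop was not tested.

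**Figure D2:**
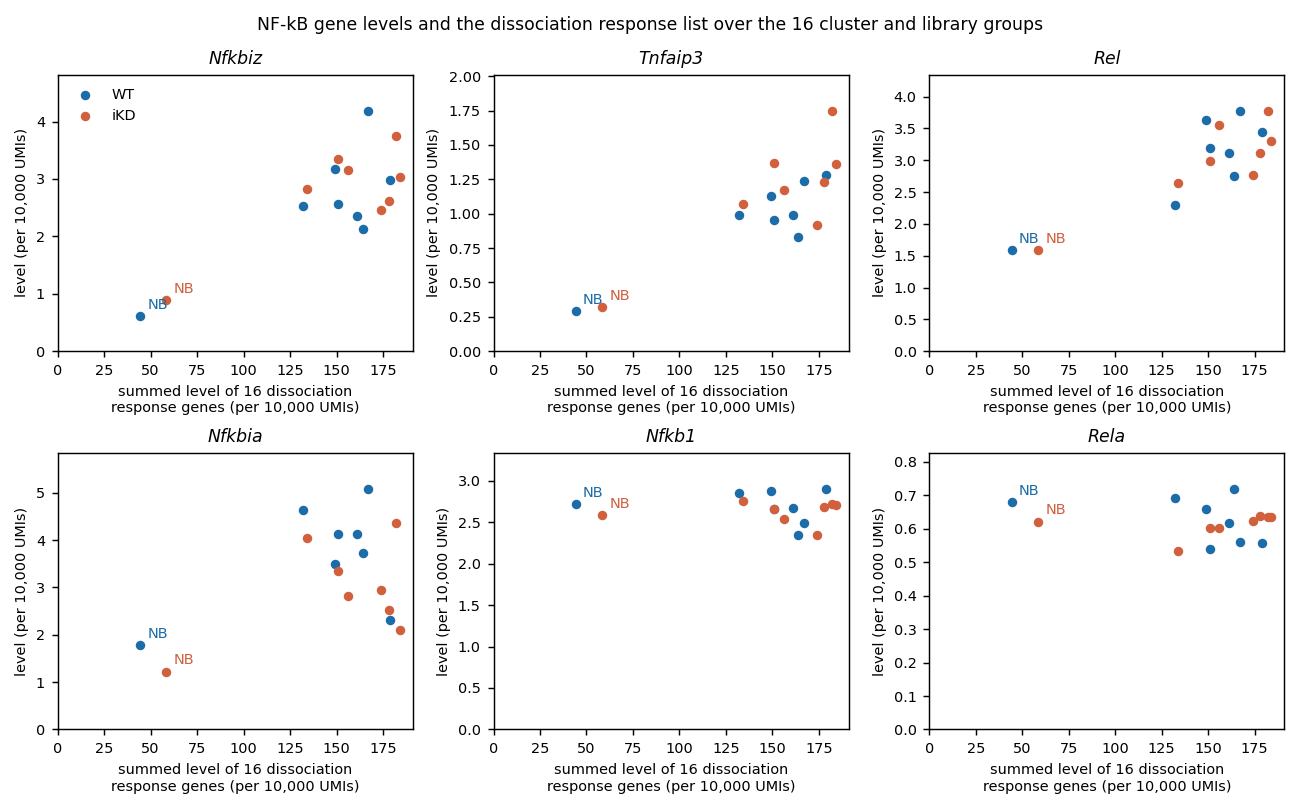
Level of 6 genes (y axes, mean over cells of counts per 10,000 UMIs) against the summed level of the 16 dissociation response genes (x axes, same unit) in the 8 clusters of WT (blue) and iKD (orange), 1 point per cluster and library. The NB points stand apart at 44.3 and 58.4 on the x axis; Nfkbiz, Tnfaip3, Rel and Nfkbia are lowest there, Nfkb1 and Rela are not.

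IN2, a smaller cluster of 194 WT and 94 iKD cells with a median depth of 3102.5 UMIs, showed a different balance. Nfkb1 was at 4.40 in WT and 3.51 in iKD there, above its level in each of the 8 main clusters of the same library. Nfkbia was at 0.960 and 0.614, below its level in each of them. The summed dissociation list was 87.9 and 82.1 in IN2. Most IN2 cells, 216 of 288, had under 2000 detected genes. Only 54 WT and 19 iKD cells reached 4500 UMIs. In those, thinned to that depth, the levels were 4.07 and 1.64 for Nfkb1 and 0.658 and 0.468 for Nfkbia. The excess of Nfkb1 was thus still seen in the 54 WT cells. It was not seen in the 19 iKD cells, but these are few and the shallower cells were left out, so its absence in iKD cannot be read from them. The content of IN2 also differed: the summed level of the 10 microglia markers was 154 in WT and 134 in iKD, against 362 to 473 in the 8 clusters, and the median neuroblast marker was detected in 2.78% of IN2 cells against 0.126% of the cells of the 8 clusters. The part of this in the levels of Nfkb1 and Nfkbia was not tested.

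The cells outside the microglia-marked clusters that could serve as a background were the 130 iKD cells named astrocytes, in which each of the 8 choroid plexus markers was detected in at least 52.2% of the cells under that name. They were uneven in microglia markers. The summed level of the 10 microglia markers was 86.5 over all 130 cells, 287 in the 32 cells with a sex call and 21.0 in the 98 without, against 407 in the iKD cells of the 8 clusters. In the 98 cells each microglia marker was at 2.42% to 6.93% of its level in the 8 clusters. Nfkb2, Nfkbid and Bcl3 had 0 UMIs there, Nfkbiz was at 0.443%, Rel at 4.07%, Nfkb1 at 5.29% and Tnfaip3 at 5.62%, all within or below that range. Nfkbia (29.5%, from 65 UMIs), Rela (22.6%, 11 UMIs) and Relb (8.58%, 3 UMIs) were above it. A UMI of Nfkbia was found in 51.0% of the 98 cells (40.7 to 61.3) and in 70.3% of the iKD cells of the 8 clusters. How much of this was free RNA, and how much the cells' own, was not tested.

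The comparison of iKD with WT asked whether loss of VEGF from the Nestin lineage changed these cells. Over the 8 clusters, Nfkbia was lower in iKD, at 2.63 against 3.41 in WT. The log2 ratio was -0.37 (-0.41 to -0.34). It had a UMI in 82.3% of WT and 70.3% of iKD cells, and in 68.4% and 57.6% after thinning. The 8 choroid plexus markers had a summed level of 0.153 in WT and 10.7 in iKD in the same clusters. With Ttr and the sex-linked and mitochondrial genes taken out of the denominator, the ratio of Nfkbia was again -0.37. It was the only one of the 9 genes past 0.25 on the log2 scale, lower or higher. Among all 8835 genes, 1.82% were lower and 1.55% higher past that value.

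The other genes lay nearer to 0. Tnfaip3 was at 0.981 in WT and 1.13 in iKD (log2 ratio 0.20, 0.14 to 0.26) and was higher in iKD in 8 of 8 clusters, from 0.05 in IPC1 to 0.51 in aNSC, with the interval above 0 in 3 of the 8. In aNSC the sexes were unequal between the libraries, and the female ratio there was 0.11 (-0.42 to 0.67). Nfkbiz was at 2.48 and 2.73, 0.13 (0.09 to 0.17), and was higher in iKD in 6 of 8 clusters. Nfkb2 was at 0.137 and 0.118, -0.19 (-0.37 to -0.01). Nfkb1 (-0.05), Rela (-0.04), Rel (0.01), Relb (-0.07) and Nfkbid (-0.06) were within 0.1 of 0. The median over the 9 genes was -0.05, and over all genes 0.01.

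Nfkbia was lower in iKD in 8 of 8 clusters, each with a counting interval below 0. The log2 ratio ranged from -0.13 in eNB (-0.22 to -0.04) to -0.70 in IPC2 (-0.79 to -0.62). Split by the sex of the cells, the female level was 2.83 in WT and 2.71 in iKD (log2 ratio -0.06, -0.11 to -0.01). The male level was 4.21 in WT and 2.31 in iKD (-0.86, -0.94 to -0.79). Female cells were lower in iKD in 5 of 8 clusters and male cells in 7 of 8, the exception being aNSC with 6 iKD male cells. The WT male cells were the group that stood apart.

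Within WT, the male level of Nfkbia was above the female level in 8 of 8 clusters. The widest gap was in NSPCs, 5.16 in 267 male against 3.15 in 829 female cells, and the narrowest was in IPC2, 4.09 against 3.91, where 9 cells were female. Within iKD the order was turned: the male level was above the female level in 1 of 8 clusters, aNSC. In IPC1, for example, it was 1.82 in 59 male and 2.87 in 1013 female cells.

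**Figure D3:**
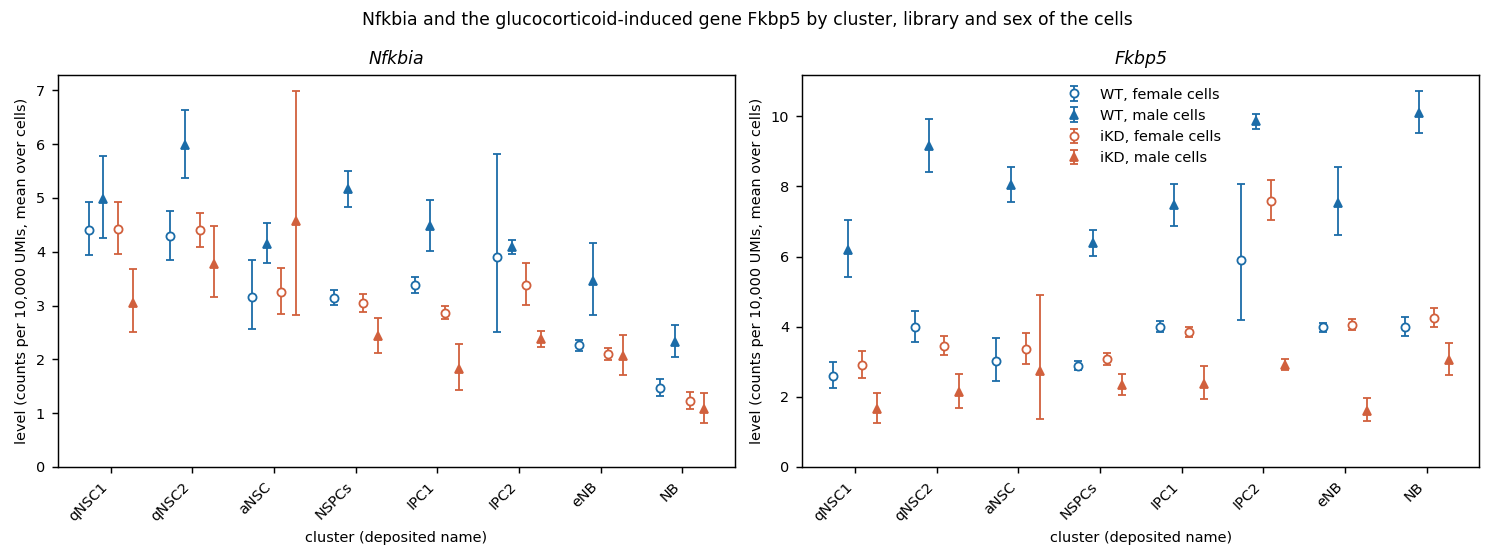
Level of Nfkbia (left) and Fkbp5 (right), as means over cells of counts per 10,000 UMIs, in the 8 clusters, by library (blue WT, orange iKD) and sex of the cells (open circles female, filled triangles male); bars are scaled 95% Poisson intervals. For both genes the WT male cells lie highest in each cluster, except Nfkbia in aNSC, where the 6 iKD male cells lie above them with a wide interval.

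Genes that glucocorticoids raise moved in the same 4 groups of cells. Fkbp5, a co-chaperone of the glucocorticoid receptor, was at 3.64 in female and 8.97 in male WT cells, and at 3.85 and 2.65 in iKD. Its male level was above the female level in 8 of 8 clusters in WT and in 0 of 8 in iKD. Ddit4, an mTORC1 inhibitor, was at 0.772 and 2.11 in WT and 0.801 and 0.569 in iKD. Tsc22d3, which encodes GILZ, was at 2.07 and 4.24 in WT and 2.32 and 2.62 in iKD, so its male level stayed above the female level in iKD, unlike that of Nfkbia. Not every listed gene followed Nfkbia. The log2 ratio of iKD over WT was 0.20 in female and 0.07 in male cells for Dusp1, and 1.96 and -0.80 for Zbtb16. The summed level of the 10 listed glucocorticoid response genes was 19.9 in female and 31.6 in male WT cells, and 20.9 and 19.0 in iKD. Whether the glucocorticoid response, the sex of the cells or few animals within a pool set the level of Nfkbia was not tested, and in these libraries the genotype and the pool cannot be told apart.

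By sex, the counts of genes past 0.25 differed. In female cells, 0 of the 9 genes were past it in either direction, against 2.28% of all genes lower and 3.08% higher. In male cells, 2 were lower, Nfkbia and Nfkbid (-0.39, -0.71 to -0.07), against 6.59% of all genes. In male cells 2 were higher, Tnfaip3 (0.38, 0.26 to 0.50) and Relb (0.26, 0.03 to 0.47), against 6.57% of all genes. By cluster, male Relb was lower in iKD in 3 of 8, with an interval above 0 in 1, and male Tnfaip3 was lower in 1 of 8, with 3 intervals above 0. The male comparison rests on 1873 WT and 1090 iKD cells, of which 1067 and 616 were in IPC2, and for Nfkbid on 296 and 116 UMIs. In Nfkbid the male level was above the female level in 7 of 8 clusters in WT and in 2 of 8 in iKD. Several of these orders rest on few UMIs, such as 2 in WT female aNSC, 1 in WT female IPC2 and 0 in iKD male aNSC cells. Tnfaip3 was at 1.03 in WT and 1.12 in iKD in female cells, and at 0.910 and 1.19 in male cells. Over the pooled clusters its level was thus lowest where that of Nfkbia was highest. This did not hold in each cluster: within WT the male level of Tnfaip3 was above the female level in 3 of 8. In IPC1 the WT male level, 1.26, was above the WT female (1.09), iKD female (1.16) and iKD male (1.18) levels.

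**Figure D4:**
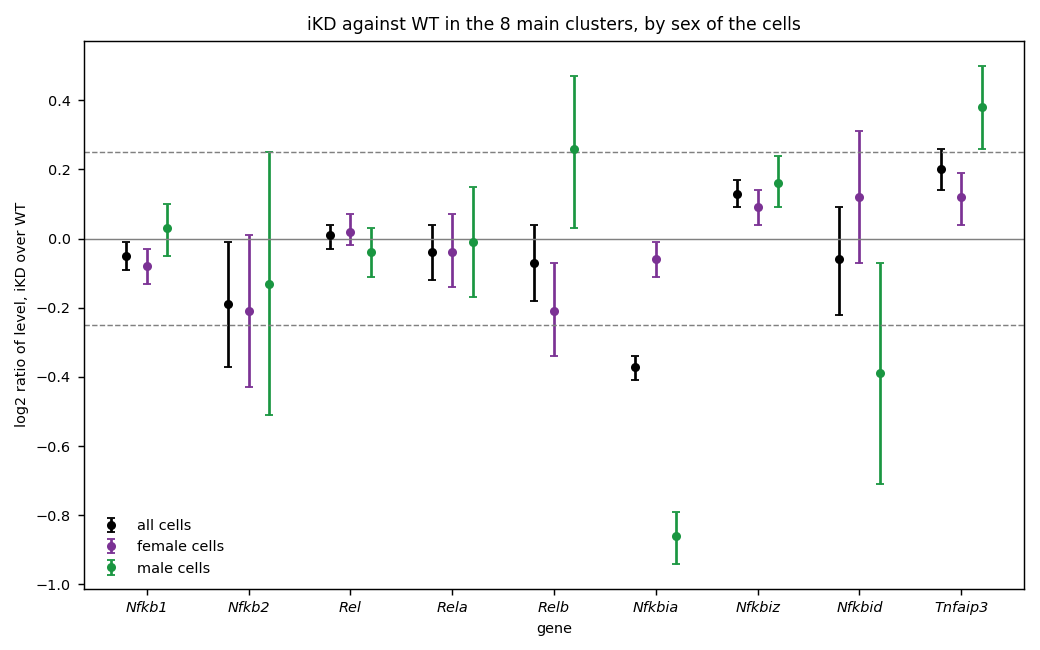
Log2 ratio of the level in iKD over WT for the 9 genes above the minimum level, in all cells (black), female cells (purple) and male cells (green) of the 8 clusters; bars are 95% counting intervals and dashed lines mark 0.25 in each direction. Nfkbia is at -0.86 in male and -0.06 in female cells, and the other genes lie between -0.39 and 0.38.

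The rest of the pathway is given by role, to be read against the 1.82% of all genes lower and 1.55% higher past 0.25 in all cells. For female cells these shares were 2.28% and 3.08%, and for male cells 6.59% and 6.57%. Of 26 IKK kinase and adaptor genes, which carry the signal from receptor to IkB, 25 were at the minimum level and 0 were past 0.25 (range -0.21 to 0.12), nor were any in female or male cells alone. The most abundant were Tab2 (2.04 in WT, 1.99 in iKD), Irak2 (1.88 and 1.92) and Bcl10 (1.05 and 1.13). Of 8 receptor genes, 5 were at the level and 0 were past 0.25 in all cells. They included Tnfrsf11a, which encodes RANK (1.62 and 1.81), with a ratio of 0.30 in female and -0.11 in male cells, and the TNF receptor genes Tnfrsf1a (1.16 and 1.10) and Tnfrsf1b (1.05 and 0.985). In male cells 1 receptor gene was lower, Il1rap (-0.34, -0.70 to 0.02). Of 16 other IkB and brake genes, 14 were at the level and 1 was lower, Traf3, a brake on the non-canonical pathway (0.598 and 0.501, -0.25), with -0.38 in female and 0.02 in male cells. Nfkbie, which encodes another cytoplasmic IkB, was also lower in female cells (-0.39), and Nkiras2 was higher in male cells (0.26, -0.03 to 0.55). Zfp36, an mRNA-destabilizing brake on cytokine genes, was at 10.5 and 10.3, N4bp1 at 1.07 and 1.05, and Otulin at 0.880 and 0.908.

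Of 28 NF-kB target genes, 17 were at the level, 1 was lower and 2 were higher, with a median log2 ratio of -0.00. The chemokine gene Ccl4 was at 2.19 and 1.82 (-0.26), with -0.31 for female and -0.01 for male cells. Its level was far higher in qNSC1, at 29.2 in WT and 20.9 in iKD for female cells and 36.3 and 23.6 for male cells. In the other clusters, split by sex, it was at most 3.88. The pooled ratios of Ccl4 therefore also depend on the share of qNSC1 cells, 41 of 1873 WT and 41 of 1090 iKD male cells. The early response gene Ier3 was at 0.305 and 0.410 (0.42), and the inflammasome gene Nlrp3 at 0.878 and 1.05 (0.26), both of similar size in female (0.41 and 0.26) and male cells (0.53 and 0.25). Junb, at 15.9 and 15.8, and Bcl2a1b, at 2.24 and 2.38, were the most abundant of the list. In female cells the counts were again 1 lower and 2 higher. In male cells 1 was lower, Ccl2 (-0.36), and 3 were higher, Il1a (0.48), Ccl3 (0.39) and Ier3, against 6.59% and 6.57% of all genes.

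In the other lists, the glucocorticoid response genes had 9 of 10 at the level, with Ddit4 (-0.83), Fkbp5 (-0.71) and Tsc22d3 (-0.29) lower and Zbtb16 (0.26) higher. Zbtb16 had a ratio of 1.96 among female and -0.80 among male cells. Among male cells 7 of the 9 were lower and 0 higher, against 6.59% and 6.57% of all genes. Sgk1 was at 7.99 and 7.03, and Dusp1 at 3.51 and 3.85. Of the 16 dissociation response genes, 14 were at the level and 2 were lower, the heat shock gene Hspa1a (-1.25) and Klf4 (-0.28). In male cells 1 was lower, Hspa1a (-0.26), and 4 were higher, Fos, Fosb, Jund and Atf3, against the same male shares of all genes. Jun was at 37.5 and 40.8, Btg2 at 24.6 and 24.5, and Jund at 17.2 and 18.7. The lists share genes, Junb, Zfp36 and Dusp1 among them.

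Across clusters, the genes whose levels ran closest to those of each NF-kB gene were sought over the 16 combinations of cluster and library, taking the 3824 genes whose level reached 0.5 as candidates. For Nfkbiz they were Arf4 (r = 0.98), Tnfaip3 (0.97) and Bcl6 (0.96), and for Tnfaip3 Rad51b (0.97), Nfkbiz (0.97) and Arf4 (0.96). For Rel they were 4933421O10Rik, Bcl6 and Arrdc3 (0.92 each). For Nfkbia the closest was Herpud1 (0.91), then Fbxo33 and Tex14 (0.87 each). For Nfkbid they were Slc15a3 (0.93) and the chemokine genes Ccl3 and Ccl4 (0.92 each), and for Nfkb2 Cd83, Gtpbp4 (0.89 each) and Hnrnpa1 (0.88). For Relb they included Pea15a (0.93) and Ube2f (0.92), for Nfkb1 they were Lpp, Cdk17 (0.86 each) and Blnk (0.85), and for Rela Sypl, Vps72 (0.68 each) and Jkamp (0.67). These are the highest values among many candidates over 16 points, and 1 cluster can carry much of an r. Nfkbid and Ccl4 were both highest in qNSC1, and Nfkbiz, Tnfaip3 and Rel were lowest in NB. The values are a description, and shared regulation was not tested.

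From cell to cell within a cluster and library, the mean r over the 16 groups of cells was 0.14 or less. For each of the 10 genes, its mean r with all other genes at a level of 0.5 or more had a median of 0.00 in size and a 99th percentile between 0.03 and 0.06. Of all 45 pairs among the 10 genes, the highest mean r was 0.10, for Relb with Nfkbia and with Tnfaip3. The immediate early genes Junb (0.14 for Nfkbiz, 0.13 for Nfkbia, 0.11 for Rel) and Btg2 (0.14, 0.13 and 0.09) led the lists of those genes. For Nfkbia, Zfp36 and H3f3b (0.12 each) and Cebpb (0.11) came next. For Nfkbiz these were Jun (0.11), Bcl6 and Gm15726 (0.10 each), and for Rel Nfkbia, Nfkbiz (0.09 each) and Jun (0.08). Tnfaip3 ran closest to Rnf19b (0.11), Dennd4a (0.10), Fos (0.09), Nfkbia and Rel (0.08 each), and Nfkb1 to Dock4, Elmo1 and Tanc2 (0.09 each), Map4 and Ptprj (0.08 each). In counts this sparse such values are no more than a description.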

How the data were processed

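The authors aligned and deduplicated reads with Cell Ranger 7.0.1 and filtered, integrated and clustered cells with Seurat 4.1.1, per the labels and the study's methods. The submitters' processing notes list the human build GRCh38, whereas the gene symbols are of mouse. The authors deposited natural log values, ln of 1 plus counts per 10,000 UMIs, in 12 tables, 1 per cluster. Whole UMI counts were recovered from 100.0% of 32261786 values above 0 (tolerance 0.01 UMI), and 0 columns were left unused. The methods state a lower limit of 2000 genes per cell, but 496 of the 10804 deposited cells had fewer, and all were kept. No doublet caller was run; 1.39% of cells of the 8 clusters held both Xist and a Y-linked UMI.

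Cells were averaged as counts per 10,000 UMIs to give the level, and iKD was set over WT on the log2 scale with a pseudocount of 0.01. Genes reaching a level of 0.1 in either library were counted, and 0.25 was the limit for a change. Summed UMIs carry exact Poisson intervals, shares exact binomial (Clopper-Pearson) intervals, and ratios an exact binomial interval from the UMI sums of both libraries. No p-value was computed. Female cells had Xist and no UMI of Ddx3y, Eif2s3y, Uty or Kdm5d, and male cells the reverse. Thinning drew 4500 UMIs per cell and left out shallower cells (10184 kept). The named genes were all 10, the 3 most abundant genes and up to 5 past the limit of each list, and the closest 5 (cell to cell, levels of at least 1) or 3 (clusters), of which 1 gene is not reported here. The genes, lists and limits were chosen with earlier results of these data known. Alternatives covered scaling, pseudocount, denominator, centring, sex, clusters, depth, limits and thinning. The steps were tested on simulated data. Gene positions are from GENCODE M21 (GRCm38) and promoters from RefSeq (GRCm38.p6). Python 3.11.15, numpy 2.4.6, scipy 1.17.1, pandas 2.3.3 and matplotlib 3.10.9 were used.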

Additional observations from a re-analysis of the deposited data

Results flagged for a closer look

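In 4 of the 9 genes the log2 ratio of iKD over WT had opposite signs in female and male cells of the 8 clusters, which drew attention to them; the difference between the sexes was not tested, since each sex and genotype is 1 pool. The ratio of Relb was -0.21 among female and 0.26 among male cells, and that of Nfkbid 0.12 in female and -0.39 in male cells. Nfkb1 (-0.08 and 0.03) and Rel (0.02 and -0.04) had opposite signs at small size. Among the 8740 genes at the minimum level in both sexes, 40.7% had opposite signs, so a count of 4 in 9 (44.4%) is near that of all genes.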

How the results depend on the processing

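The count of NF-kB genes past 0.25 on the log2 scale, 1 of 9, fell to 0 in female cells only and with a limit of 0.5. It rose to 4 in male cells only (2 lower, 2 higher) and to 2 (1 lower, 1 higher) with the mean of the female and male ratios, an alternative chosen after the data were seen. Under the other 13 alternatives it stayed 1. The median log2 ratio stayed between -0.06 and -0.01, and the number lowest in NB between 4 and 6. The ratio of Nfkbia was below 0 under all 14 alternatives, from -0.86 (male cells only) to -0.06 (female cells only). It was between -0.46 and -0.28 over the 12 that kept both sexes. Of these, a pseudocount of 1 gave -0.28, and so did the one without IPC2, also chosen after the data were seen. Both were nearer to 0 than the counting interval of the main ratio. The mean of the female and male ratios gave -0.46, beyond the other end of that interval. Of the 14 alternatives, 9 lay within that interval. The cluster with the lowest level was NB under all 9 alternatives for Rel, Relb, Nfkbia, Nfkbiz, Nfkbid and Tnfaip3 by the mean of the libraries, whereas the highest cluster of Rela was kept in 4 of 9. No paired analysis was possible because each genotype has 1 library. The values of Bcl3 rest on 134 UMIs in 10292 cells, and those of male aNSC in iKD on 6 cells.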
